A study of Mus musculus with 25 samples.

Results

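Polycomb group proteins hold genes in a low state through chromatin. Polycomb repressive complex 1 (PRC1) attaches ubiquitin to histone H2A, and Polycomb repressive complex 2 (PRC2) methylates histone H3 at the residue read as H3K27me3. Each PRC1 complex is built around a RING protein, Ring1 or Rnf2, and 1 of the PCGF proteins, which decides the kind of complex. The PRC1 complex with Pcgf6 also holds Mga and L3mbtl2, and in mouse embryonic stem cells it keeps germline and meiotic genes low. In mouse oocytes PRC2 sets H3K27me3 marks that the embryo inherits.

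The 10 genes described here were Pcgf6, Pcgf1, Mga, L3mbtl2, Rnf2, Ring1, Ezh2, Eed, Suz12 and Jarid2, taken by name out of the 35561 genes listed in the oocyte table, the embryo table or both. They were chosen by name and by their FPKM levels over the 6 groups, so the levels below are a description of these libraries. All 10 were listed in the embryo table and 9 in the oocyte table, which held no row for Ring1. RNA of mouse oocytes and embryos of strain C57BL/6 was measured by Smart-seq2, a method for copying whole messenger RNAs out of minute samples, as FPKM (fragments counted per gene, scaled by its length and by the library total). The groups were metaphase II (MII) oocytes matured in culture with VCD (n = 5) or PBS (n = 4), 2-cell embryos from in vitro fertilization with VCD (n = 4) or PBS (n = 4), and morulae with VCD (n = 4) or PBS (n = 4). VCD is the labels' name for a small molecule added to the culture media, with no dose or full name given there, and PBS was the control. The MII oocytes were taken at the germinal vesicle stage, before meiosis resumes, and matured in culture. The number of oocytes or embryos behind a library is not given in the sources used here, nor whether replicate libraries had different animals or cultures as their source, so a p-value measures the spread between these libraries, which may be technical.

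From the steps of the FPKM values, each library was counted to a depth of 15075832 to 20998296, at which 1 read in a gene of 1 kb was worth between 0.0476 and 0.0663 FPKM. The labelled stages were checked against marker genes. The summed level of 8 oocyte markers lay between 7996 and 11182 FPKM in MII oocytes with VCD, between 9083 and 9906 FPKM in those with PBS, and at 60.7 FPKM or less in every morula library. In 2-cell embryos that sum was still between 3093 and 3305 FPKM with VCD and between 2970 and 3815 FPKM with PBS. The 4 2-cell markers that could be matched summed to between 610 and 1051 FPKM in 2-cell embryos with VCD and between 760 and 884 FPKM in those with PBS. The 6 morula markers summed to between 179 and 281 FPKM in morulae with VCD and between 157 and 224 FPKM in those with PBS. In MII oocytes they summed to between 39.0 and 98.9 FPKM with VCD and between 66.4 and 86.4 FPKM with PBS. Of these markers, Cdh1 ran the other way, at 35.6 to 88.0 FPKM in MII oocytes and 20.1 to 33.6 FPKM in morulae. Markers of other cells were low: 8 cumulus and granulosa markers summed to at most 6.27 FPKM in any library, 4 sperm markers to at most 1.93 FPKM and 4 blood markers to at most 10.2 FPKM.

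The windows of 250 bases upstream of the annotated start are shown for Pcgf6, the member whose morula libraries parted by agent, and for Ring1, the member listed at or near 0. Both are read 5′ to 3′ on the gene's strand from the RefSeq promoter table of build GRCm38.p6, with CG dinucleotides in capitals. The Pcgf6 window lies at chr19:47050907-47051156 (minus strand) and holds 14 CG dinucleotides. The Ring1 window lies at chr17:34024681-34024930 (minus strand) and holds 30.
Pcgf6: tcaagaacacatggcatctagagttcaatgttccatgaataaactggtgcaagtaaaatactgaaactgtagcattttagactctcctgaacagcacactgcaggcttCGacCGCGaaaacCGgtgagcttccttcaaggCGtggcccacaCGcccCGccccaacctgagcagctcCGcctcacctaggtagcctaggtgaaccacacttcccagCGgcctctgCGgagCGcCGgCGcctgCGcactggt
Ring1: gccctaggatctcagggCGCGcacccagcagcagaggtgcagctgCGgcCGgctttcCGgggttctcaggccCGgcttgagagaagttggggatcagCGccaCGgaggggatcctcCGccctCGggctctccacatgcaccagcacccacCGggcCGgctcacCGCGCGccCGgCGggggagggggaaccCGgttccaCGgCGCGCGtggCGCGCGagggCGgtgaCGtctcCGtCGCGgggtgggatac
The table matched 9 of the 10 genes with 10 windows, Jarid2 having a pair, and these windows held between 12 and 37 CG dinucleotides, against a median of 6 over all 32851 promoters of the table, of which 33.5% held 12 or more. The E-box CACGTG, searched on both strands because Mga pairs with Max on such sites, was in 0 of the 10 windows and in 6.02% of all promoters. The motif GCGGGAA of the E2F factors was in 1 of the 10 windows, that of Suz12, and in 3.82% of all promoters. Of all promoters, 94.1% held fewer CG dinucleotides than the Ring1 window and 70.6% fewer than the Pcgf6 window.

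Pcgf6, the PCGF protein that defines the germline-repressing PRC1 complex, was among the more abundant members at every stage. It had 160, 143, 104, 110 and 113 FPKM in the 5 MII oocyte libraries with VCD, against 102, 125, 135 and 99.8 FPKM in the 4 with PBS. It had 132, 114, 113 and 133 FPKM in 2-cell embryos with VCD, against 145, 136, 118 and 126 FPKM in those with PBS. It had 79.1, 71.1, 72.8 and 73.4 FPKM in morulae with VCD, against 51.8, 47.9, 48.9 and 39.2 FPKM in morulae with PBS. Within oocytes and within 2-cell embryos the libraries of both agents overlapped, while every VCD morula lay above every PBS morula. Every morula library lay below every oocyte and 2-cell library. In the order of the group means, 2-cell embryos with PBS (131 FPKM), MII oocytes with VCD (126), 2-cell embryos with VCD (123) and MII oocytes with PBS (115) had overlapping ranges, and morulae with VCD (74.1) and with PBS (46.9) followed, apart from these and from each other. About 3601 to 6867 reads lay behind each morula value. These are approximate, since with the annotated exon length the reads of Pcgf6, unlike those of the other members, did not come out whole. Oocytes and embryos are in separate tables, so the levels are set side by side with no test between them.

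**Figure D1:**
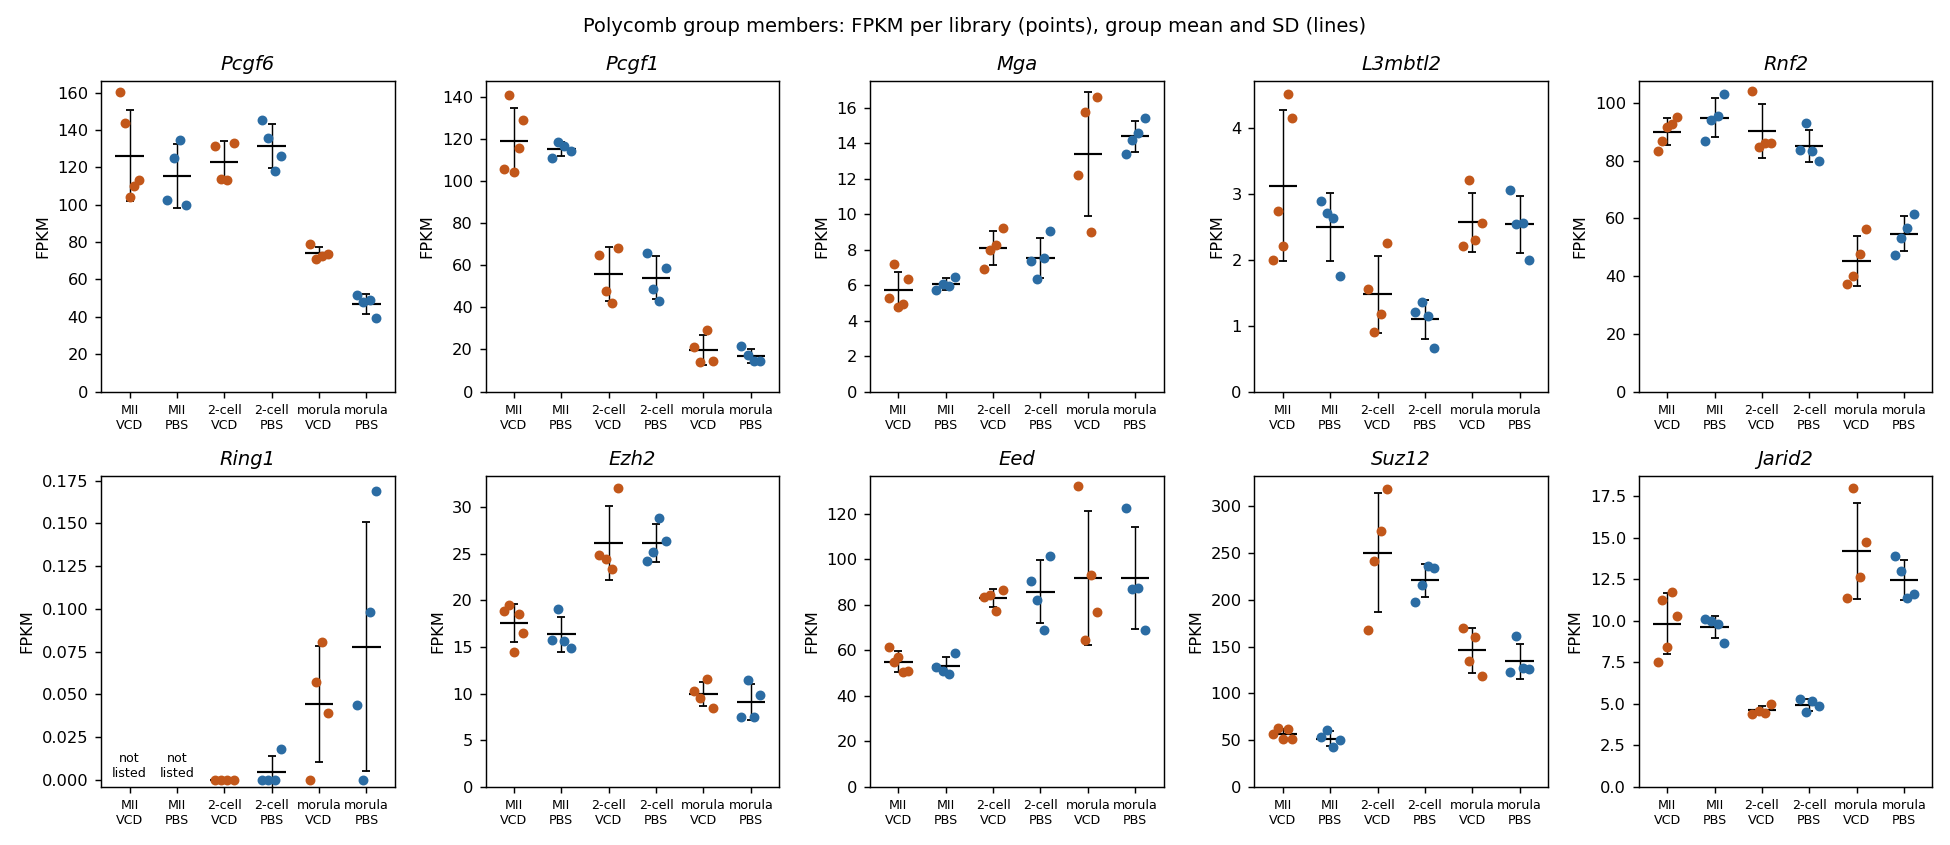
FPKM of the 10 members (vertical axes, a scale for each gene) in every library, with VCD (orange) left of PBS (blue) at each stage; points are libraries, bars the group mean and SD (n = 5 for MII oocytes with VCD, n = 4 for the others). Pcgf6 in morulae is the case where all VCD libraries (71.1 to 79.1 FPKM) lie above all PBS libraries (39.2 to 51.8 FPKM), and the oocyte table lists no Ring1.

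Mga and L3mbtl2, the partners of Pcgf6, were far less abundant and ran the other way between 2-cell embryo and morula. Mga, a large protein that binds DNA with Max, averaged 5.70 ± 1.04 FPKM in MII oocytes with VCD (SD, n = 5) and 6.06 ± 0.318 FPKM in those with PBS (SD, n = 4). It had 6.90, 7.97, 8.26 and 9.25 FPKM in 2-cell embryos with VCD and 7.34, 6.32, 7.52 and 9.06 FPKM in those with PBS. Its morula values were 12.2, 15.8, 9.03 and 16.6 FPKM with VCD and 13.4, 14.2, 14.6 and 15.4 FPKM with PBS. All PBS morulae lay above all PBS 2-cell embryos, while the VCD morula library at 9.03 FPKM lay within the 2-cell range. L3mbtl2, a chromatin reader, ran between 0.668 and 4.52 FPKM over all libraries. It averaged 3.12 ± 1.15 FPKM in MII oocytes with VCD and 2.50 ± 0.509 FPKM in those with PBS, 1.48 ± 0.587 FPKM in 2-cell embryos with VCD and 1.10 ± 0.300 FPKM in those with PBS, and 2.57 ± 0.450 FPKM in morulae with VCD and 2.54 ± 0.437 FPKM in those with PBS. It rested on 67 to 238 reads per library in 2-cell embryos, and 17.2% of its exon bases overlap the gene Chadl on the other strand. Whether the counting used strand is not stated, so reads of the pair cannot be told apart.

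Pcgf1 defines another PRC1 complex, the one with Kdm2b and Bcor that binds CpG islands. Its level stood at 119 ± 15.7 FPKM in MII oocytes with VCD and 115 ± 3.33 FPKM in those with PBS. It was at 65.1, 48.0, 41.9 and 68.4 FPKM in 2-cell embryos with VCD and at 65.9, 48.9, 42.9 and 58.6 FPKM in those with PBS. It was at 21.2, 13.8, 29.3 and 14.5 FPKM in morulae with VCD and at 21.4, 17.4, 14.3 and 14.4 FPKM in those with PBS. Each later stage thus lay below the one before it in every library of either agent. Of the 50-base words of its transcripts, 15.3% also occur in 1 other annotated gene, the highest share among the members.

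Rnf2 was the RING protein on which these libraries read: it ran between 80.0 and 104 FPKM in oocytes and 2-cell embryos of both agents. It had 37.1, 39.9, 47.8 and 56.1 FPKM in morulae with VCD and 47.4, 53.2, 56.7 and 61.6 FPKM in morulae with PBS, ranges that overlap. Ring1, its paralog, was listed at 0 in all 4 2-cell libraries with VCD and in 3 of the 4 with PBS. Its highest morula values were 0.0806 FPKM with VCD and 0.169 FPKM with PBS. These correspond to 1 read over all 2-cell libraries and 28 reads over all morula libraries, with at most 10 in a library, so no fold is given for Ring1.

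In PRC2, the subunits did not move as a block. Ezh2, the enzyme that methylates histone H3, averaged 17.6 ± 2.06 FPKM in MII oocytes with VCD and 16.4 ± 1.87 FPKM in those with PBS, and was highest in 2-cell embryos, at 26.2 ± 3.97 FPKM with VCD and 26.2 ± 2.02 FPKM with PBS. It had 10.3, 9.52, 11.6 and 8.47 FPKM in morulae with VCD and 7.50, 11.5, 7.49 and 9.82 FPKM in morulae with PBS, the lowest of its stages. Suz12, a core subunit that holds the complex together, averaged 56.6 ± 5.77 FPKM in MII oocytes with VCD and 51.4 ± 7.75 FPKM in those with PBS. It had 167, 242, 273 and 319 FPKM in 2-cell embryos with VCD and 198, 216, 236 and 234 FPKM in those with PBS. It had 170, 135, 161 and 118 FPKM in morulae with VCD and 122, 162, 127 and 126 FPKM in morulae with PBS. Suz12 thus had the highest mean of the 10 members in 2-cell embryos and in morulae, and all its PBS morulae lay below all PBS 2-cell embryos, whereas with VCD a morula at 170 FPKM stood just above a 2-cell library at 167 FPKM. Eed, the subunit that binds the methyl mark, averaged 54.9 ± 4.61 FPKM in MII oocytes with VCD and 53.1 ± 4.06 FPKM in those with PBS, 82.9 ± 3.93 FPKM in 2-cell embryos with VCD and 85.7 ± 13.9 FPKM in those with PBS. Its morula libraries spread widely, at 132, 64.5, 93.2 and 76.9 FPKM with VCD and 123, 87.0, 87.5 and 69.1 FPKM with PBS, around its 2-cell level. Jarid2, an accessory subunit that helps recruit PRC2, was lowest in 2-cell embryos, at 4.60 ± 0.262 FPKM with VCD and 4.95 ± 0.363 FPKM with PBS. It had averaged 9.82 ± 1.81 FPKM in MII oocytes with VCD and 9.62 ± 0.659 FPKM in those with PBS, and had 11.3, 18.0, 12.6 and 14.8 FPKM in morulae with VCD and 13.9, 13.0, 11.4 and 11.6 FPKM in morulae with PBS. Every morula library lay above every 2-cell library for Jarid2. Between 2.61% and 6.82% of the exon bases of Ezh2, Suz12, Rnf2 and Eed overlap a gene on the other strand.

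Morulae were set against 2-cell embryos within each agent by limma on log2(FPKM + 1), keeping genes that reached 1 FPKM in 4 or more of the libraries compared, with Benjamini-Hochberg adjustment over all genes tested, a gene passing at an adjusted p below 0.05. Between these stages most genes differed: 87.7% of 12517 genes passed with PBS (42.7% higher and 45.0% lower in morulae) and 84.8% of 12355 passed with VCD (41.0% higher and 43.9% lower). Of the 10 members, Ring1 did not reach the filter, and of the 9 tested 8 passed with either agent, 3 higher and 5 lower in morulae, a share near that of all genes. The members were chosen with these levels known, so their calls, SEs and adjusted p-values describe these libraries and are no independent test. In these whole-embryo libraries fewer cells of a type and less RNA per cell cannot be told apart. Pcgf6 was lower in morulae by a log2 difference of -0.72 (SE 0.14) with VCD and -1.47 (SE 0.13) with PBS. Pcgf1 differed by -1.49 (SE 0.26) with VCD and -1.62 (SE 0.18) with PBS, and Ezh2 by -1.31 (SE 0.17) with VCD and -1.45 (SE 0.16) with PBS. These changes correspond to morula means at 0.603, 0.353 and 0.380 times the 2-cell means with VCD, and at 0.357, 0.312 and 0.347 times with PBS, for Pcgf6, Pcgf1 and Ezh2 in turn. Rnf2 differed by -0.99 (SE 0.17) with VCD and -0.63 (SE 0.12) with PBS, and Suz12 by -0.75 (SE 0.21) and -0.72 (SE 0.13). The members higher in morulae were Jarid2, by 1.42 (SE 0.18) with VCD and 1.18 (SE 0.13) with PBS, Mga, by 0.64 (SE 0.21) and 0.85 (SE 0.14), and L3mbtl2, by 0.55 (SE 0.19) and 0.76 (SE 0.15). Their morula means were 3.09, 1.66 and 1.74 times the 2-cell means with VCD, and 2.52, 1.90 and 2.31 times with PBS. By this ratio L3mbtl2 rose more than Mga, since log2(FPKM + 1) understates changes of low genes. Eed did not pass, at 0.09 (SE 0.21) with VCD and 0.08 (SE 0.19) with PBS. With VCD, L3mbtl2 lost its call without 2-cell replicate 2 (0.43, adjusted p = 0.103), 2-cell replicate 3 (0.50, adjusted p = 0.0753) or morula replicate 2 (0.47, adjusted p = 0.0513). The members' median log2 difference was -0.72 with VCD and -0.63 with PBS, beside -0.08 over all genes tested with either agent. Each of these member medians is the value of 1 gene, Pcgf6 with VCD and Rnf2 with PBS, and the members moved both ways.

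VCD was set against PBS within each stage and no member passed at any stage. The members were chosen with their levels known, so the intervals and p-values below describe these libraries. The background was low: 0.0115% of 8715 genes passed in MII oocytes, 0% of 11369 in 2-cell embryos and 0.0100% of 9959 in morulae. At an unadjusted p below 0.05 stood 245, 391 and 311 genes of all those tested in the 3 stages by limma, and of the 9 members 0 in oocytes, 0 in 2-cell embryos and 1, Pcgf6, in morulae. In morulae Pcgf6 stood 1.58 times higher with VCD than with PBS, a log2 difference of 0.65 (SE 0.15, 95% confidence interval 0.32 to 0.99), which did not pass over all genes tested (limma, adjusted p = 0.867). It was 1 of the 2.04% of genes whose VCD and PBS morula libraries did not overlap, and the 1 member in that state, against 0 members in oocytes (background 1.04%) and 0 in 2-cell embryos (background 2.16%). The adjusted p lay between 0.731 and 0.99998 over the alternatives tried, with a log2 difference between 0.57 and 0.70. The Pcgf6 difference was 0.12 (SE 0.14, interval -0.19 to 0.43) in oocytes and -0.09 (SE 0.11, interval -0.34 to 0.15) in 2-cell embryos. The morula difference minus the 2-cell difference was 0.75 (SE 0.17, interval 0.39 to 1.10), and it did not pass either (adjusted p = 0.542, with 0% of 14144 genes passing and 502 at an unadjusted p below 0.05).

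Some features of the morula libraries ran beside this difference. The VCD morulae were read less deeply, at 15304093 to 17266923 counts, than the PBS morulae, at 17230875 to 20998296 counts. The summed 2-cell markers lay between 5.38 and 34.5 FPKM in VCD morulae and between 11.8 and 43.0 FPKM in PBS morulae, with 3 of the 4 markers at a mean of 1 FPKM or more in either group, and the summed oocyte markers between 30.2 and 43.5 FPKM and between 36.7 and 60.7 FPKM. The part of depth and of stage in the Pcgf6 difference was not tested.

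For the other 8 members the libraries of the agents overlapped at every stage, and the intervals below bound the change. In MII oocytes the largest of these was L3mbtl2, at 0.21 (SE 0.19), and its interval reached 0.63. In 2-cell embryos L3mbtl2 again led, at 0.22 (SE 0.20), with an interval up to 0.66. In morulae Rnf2, at -0.28 (SE 0.18, interval -0.67 to 0.11), was the furthest below 0, and Pcgf1, at 0.17 (SE 0.25, interval -0.39 to 0.72), was the furthest above it after Pcgf6. The members' median log2 difference was 0.05 in oocytes, 0.04 in 2-cell embryos and 0.11 in morulae, beside 0.01, 0.01 and -0.01 over all genes tested. A missed threshold does not show that the levels were alike.

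**Figure D2:**
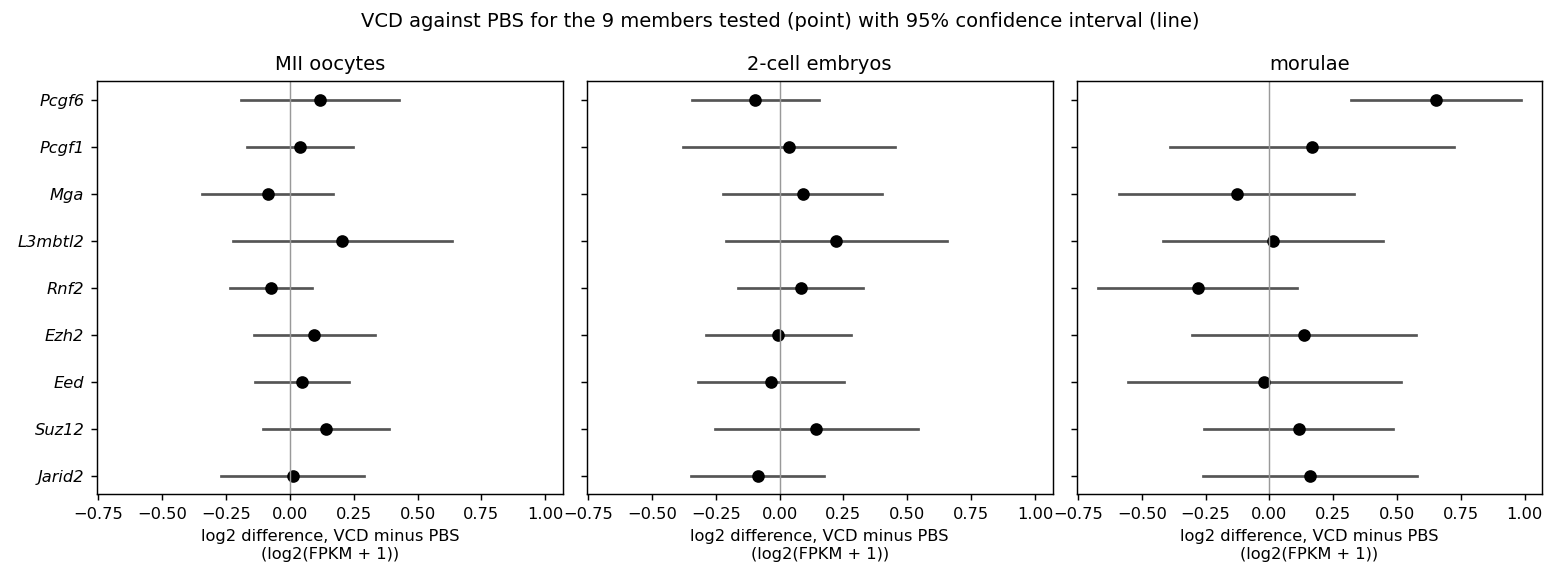
Log2 difference, VCD minus PBS, on the log2(FPKM + 1) scale (horizontal axes) of the 9 members tested, in MII oocytes, 2-cell embryos and morulae, with points for the estimate and lines for its 95% confidence interval. The interval of Pcgf6 in morulae (0.32 to 0.99) is the one that lies clear of 0, but no member passed over all genes tested. The intervals are not adjusted for the number of genes, and the members were chosen with their levels known.

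The makeup of the PCGF family changed between stages, measured as each gene's share of the family's summed FPKM in a library. In MII oocytes 3 genes held most of it: Bmi1, a PCGF protein of canonical PRC1, with 37.6% ± 2.23 with VCD and 38.3% ± 2.62 with PBS, Pcgf6 with 31.6% ± 3.31 and 30.5% ± 3.19, and Pcgf1 with 30.1% ± 3.52 and 30.5% ± 0.756 (SD, n = 5 and n = 4). In 2-cell embryos Bmi1 held 59.9% ± 5.16 with VCD and 56.5% ± 3.29 with PBS, and Pcgf6 21.5% ± 3.54 and 23.5% ± 1.83. In morulae Pcgf5, which forms a variant PRC1 that needs no PRC2, held 67.3% ± 8.36 with VCD and 74.5% ± 1.55 with PBS, and Bmi1 2.84% ± 0.202 and 3.77% ± 1.16. Pcgf6 held 22.8% ± 7.03 in morulae with VCD, between 16.5% and 32.4%, and 15.3% ± 0.394 with PBS, between 14.8% and 15.6%. The VCD morulae thus all stood above the PBS morulae in this share too, which rests on the same Pcgf6 values. Pcgf2 and Pcgf3 held at most 2.55% in any library. Among the H3 methyltransferases of PRC2, Ezh2 held 60.4% ± 6.66 of the Ezh1 and Ezh2 sum in MII oocytes with VCD and 59.2% ± 2.19 with PBS, 74.5% ± 1.24 in 2-cell embryos with VCD and 76.4% ± 1.89 with PBS, and 78.1% ± 7.38 in morulae with VCD and 79.6% ± 8.76 with PBS.

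**Figure D3:**
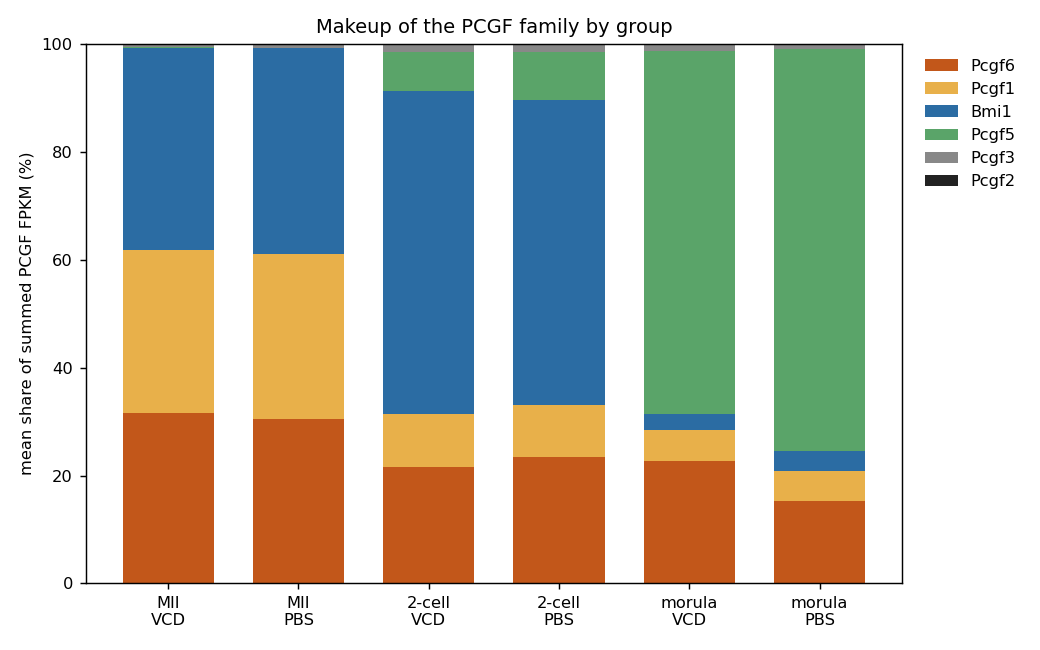
Mean share of each PCGF gene in the summed FPKM of the family (vertical axis, %) in the 6 groups, VCD left of PBS at each stage, n = 5 for MII oocytes with VCD and n = 4 for the others. Bmi1 (blue) holds 56.5% to 59.9% in 2-cell embryos and Pcgf5 (green) 67.3% to 74.5% in morulae, while Pcgf6 (dark orange) holds 15.3% to 31.6% throughout.

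The genes compared over all 25 libraries were the 8582 listed in both tables with a mean of 5 FPKM or more in any group. Those whose log2(FPKM + 1) ran most like that of Pcgf6 were Rdh10 (Pearson's r 0.961), a retinol dehydrogenase, Sap30 (0.945), a part of the Sin3 histone deacetylase complex, Ube2d2a (0.945), a ubiquitin-conjugating enzyme, Kctd13 (0.934), an adaptor of a cullin ubiquitin ligase, and Hibadh (0.924), an enzyme of valine breakdown. Their r spans both tables, all stages and both agents, so any difference of these genes between stages or agents is partly built into the choice and is not given as a result. The same measure was 0.83 for Ezh2, 0.81 for Pcgf1 and 0.73 for Rnf2, and it was -0.10 for Suz12, -0.35 for Eed, -0.64 for Jarid2 and -0.79 for Mga. L3mbtl2 and Ring1 were not among the genes compared. With each group's mean taken out, the members that ran most alike over the 25 libraries were Suz12 with Ezh2 (r 0.67) and Jarid2 with L3mbtl2 (0.67), and the most opposed were Suz12 with Rnf2 (-0.49). These are the extremes picked from all pairs of members other than Ring1. The pairs with Pcgf6 ran from -0.25 (Rnf2) to 0.37 (Pcgf1). All these are descriptions of libraries that share depth and preparation.

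The wider Polycomb system was read from 8 lists with 116 genes. In morulae against 2-cell embryos, 56 of 71 list genes tested passed with VCD (78.9%) and 60 of 72 with PBS (83.3%), near the shares of all genes, and no list can be called particular from its count. By direction, all genes split into 41.0% higher and 43.9% lower in morulae with VCD, and 42.7% and 45.0% with PBS. A gene below 1 FPKM in every library of 1 stage was tested only through the other stage, so the filter fixed its direction. Of the 11 partners of the Pcgf6 complex, 7 were higher and 2 lower in morulae with VCD, and 5 and 2 with PBS, with a median of 0.66 with VCD and 0.39 with PBS. Hdac1, a histone deacetylase, averaged 181 ± 29.1 FPKM in VCD morulae and 13.2 ± 2.43 FPKM in VCD 2-cell embryos, and 152 ± 20.1 FPKM in PBS morulae and 12.3 ± 1.42 FPKM in PBS 2-cell embryos (log2 difference with PBS 3.52, SE 0.14). Of the 50-base words of Hdac1, 35.3% also occur in 92 other annotated genes, so its level is uncertain. Wdr5, an adaptor shared with histone methyltransferase complexes, was also higher with PBS (2.34, SE 0.12). Yaf2, a RING-binding subunit, fell, with 13.4 ± 5.06 FPKM in PBS morulae and 41.5 ± 7.29 FPKM in PBS 2-cell embryos, while Rybp, its paralog, rose, with 8.93 ± 3.53 FPKM in PBS morulae and 4.33 ± 0.283 FPKM in PBS 2-cell embryos. Max, the partner of Mga, fell (-1.39, SE 0.14), and E2f6, the E2F factor of the complex, rose (0.93, SE 0.12), with Tfdp1 and Cbx1 among the 4 that did not pass with PBS. E2f6 stayed below 1 FPKM in every 2-cell library, so it was tested through morulae alone and could only be higher there. With VCD the same held for Cbx3.

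Of 14 genes tested among other PCGF proteins and variant PRC1, 3 were higher and 7 lower in morulae with VCD, and 3 and 9 with PBS. Bmi1 fell to 9.77 ± 2.48 FPKM in VCD morulae, against 347 ± 57.8 FPKM in VCD 2-cell embryos, and to 11.3 ± 2.38 FPKM in PBS morulae, against 316 ± 23.4 FPKM in PBS 2-cell embryos (log2 difference with PBS -4.70, SE 0.15). Pcgf5 rose (2.21, SE 0.14 with PBS), to 239 ± 87.9 FPKM in VCD morulae and 229 ± 24.97 FPKM in PBS morulae. Of 7 canonical PRC1 subunits tested, 1 was higher and 5 lower in morulae with either agent, with a median of -2.65 with VCD and -2.59 with PBS. All genes tested had 41.0% higher and 43.9% lower with VCD and 42.7% and 45.0% with PBS, with a median of -0.08 with either agent. Scml2 (-5.28, SE 0.12 with PBS), a germline PRC1 partner, and Cbx2 (-2.77, SE 0.17), which binds the H3 methyl mark, changed most on the log2(FPKM + 1) scale. That scale understates changes of low genes. In FPKM, Cbx2 averaged 12.6 in PBS 2-cell embryos and 0.963 in PBS morulae, and Phc2 averaged 9.47 and 0.626. Cbx8, which met the filter through morulae alone, was the 1 that rose (0.75, SE 0.12).

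Of 9 PRC2 partners tested, 3 were higher and 5 lower in morulae with either agent. The background was 41.0% higher and 43.9% lower with VCD, and 42.7% and 45.0% with PBS. Ezhip, which inhibits PRC2 in germ cells, fell to 3.85 ± 1.13 FPKM in VCD morulae, against 1348 ± 302 FPKM in VCD 2-cell embryos, and to 3.69 ± 1.62 FPKM in PBS morulae, against 1252 ± 142 FPKM in PBS 2-cell embryos (log2 difference with PBS -8.12, SE 0.22). Phf1, an accessory subunit, fell too (-5.69, SE 0.21 with PBS), whereas its relative Mtf2 rose (2.87, SE 0.20). Of 9 opposing enzymes tested, 1 was higher and 6 lower in morulae with VCD, and 2 and 6 with PBS. Kdm6a, which removes the H3 methyl mark, fell by 2.79 on the log2 scale (SE 0.18) and Asxl1, a partner of the H2A deubiquitinase Bap1, by 1.89 (SE 0.19) with PBS, while Bap1 itself did not pass (-0.23, SE 0.18).

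Among 13 germline genes tested that the Pcgf6 complex binds in mouse embryonic stem cells, 0 were higher and 9 lower in morulae with VCD, and 1 was higher and 10 lower with PBS. Over all genes, 41.0% were higher and 43.9% lower with VCD, and 42.7% and 45.0% with PBS. Dazl, an RNA-binding protein of germ cells, fell by 6.20 on the log2 scale (SE 0.16) and Tdrd1, of the piRNA pathway, by 3.98 (SE 0.12) with PBS. Dazl and Tdrd1 are also expressed by the oocyte, as at 534 ± 40.3 FPKM for Dazl in MII oocytes with VCD and 570 ± 50.5 FPKM with PBS. Tex101 was the 1 that rose with PBS (1.68, SE 0.34), and with VCD its difference was 0.45 (SE 0.44), which did not pass. Of the genes with maternal H3K27me3 imprints, 3 of 4 tested were higher with VCD and 4 of 5 with PBS, and none was lower. The genes called higher stayed below 1 FPKM in every 2-cell library and met the filter through morulae alone. Their direction was thus fixed by the filter, and these counts are no result about the imprints. Gab1, a signalling adaptor, rose by 3.23 (SE 0.29) and Xist, the RNA that silences an X chromosome, by 2.63 (SE 0.27) with PBS. Of 39 Hox genes, 4 reached the filter, with 1 higher and 3 lower in morulae with either agent, and Hoxa7, a body-axis factor, fell by 4.57 (SE 0.25) with PBS.

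**Figure D4:**
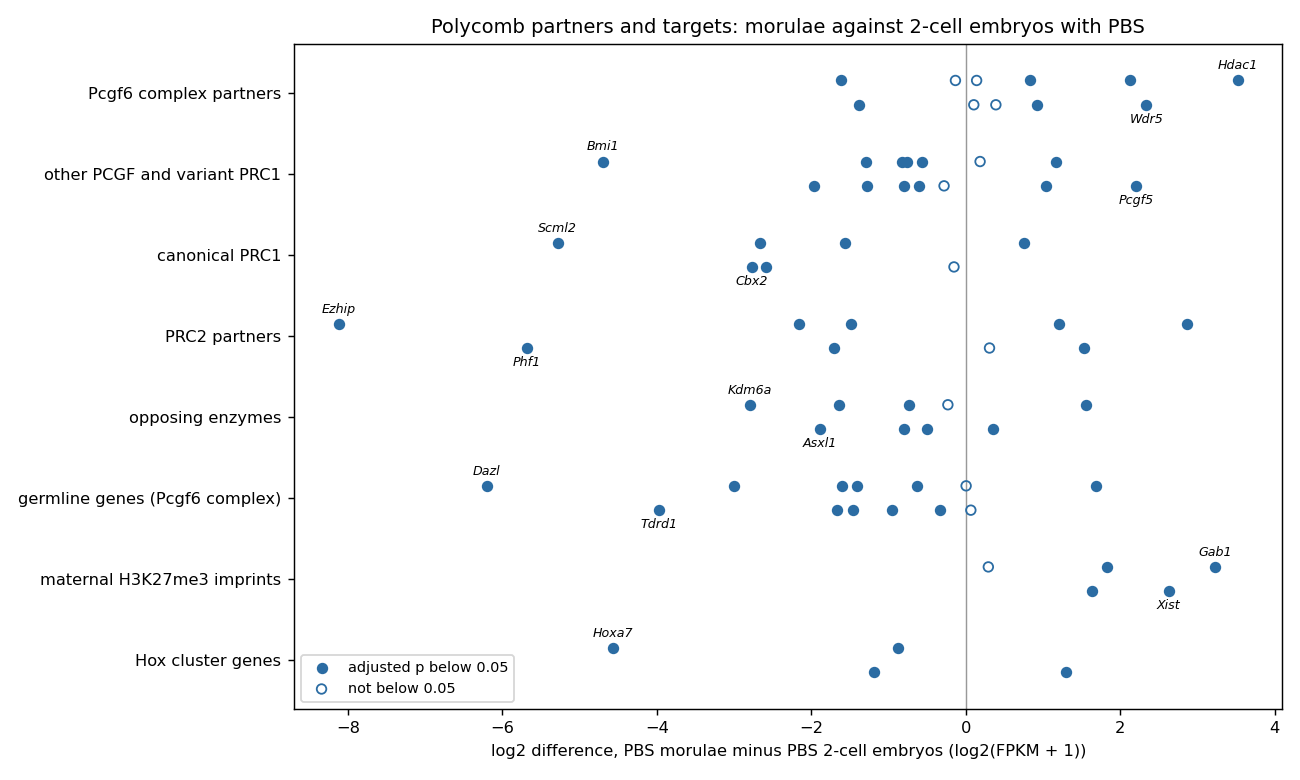
Log2 difference, PBS morulae minus PBS 2-cell embryos, on the log2(FPKM + 1) scale (horizontal axis) of every list gene tested, a row for each of the 8 lists; filled points passed at an adjusted p below 0.05 (limma), open points did not. Canonical PRC1 subunits lie mostly to the left (5 of 7 lower) and genes with maternal H3K27me3 imprints to the right (4 of 5 higher). The background was 42.7% higher and 45.0% lower. Genes below 1 FPKM in every library of 1 stage, as the 4 imprint genes called, could move only 1 way under the filter.

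With VCD against PBS, 0 list genes passed by limma at any stage, of 56 tested in MII oocytes, 63 in 2-cell embryos and 61 in morulae. At an unadjusted p below 0.05 by limma stood 0, 0 and 2 of them, beside 2.81%, 3.44% and 3.12% of all genes tested. The 2 in morulae, named after their values were seen, were Dazl and Epop, a PRC2 partner. Dazl had 2.76, 2.00, 2.998 and 2.16 FPKM in VCD morulae, against 5.76, 5.17, 5.96 and 3.20 FPKM in PBS morulae (log2 difference -0.77, SE 0.22, adjusted p = 0.99997). Epop had 3.60, 5.48, 3.98 and 3.02 FPKM in VCD morulae, against 1.71, 3.24, 2.84 and 1.92 FPKM in PBS morulae (0.55, SE 0.23, adjusted p = 0.99997). The Dazl libraries did not overlap between agents, which held for 2.04% of all genes tested in morulae, and those of Epop did.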

How the data were processed

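Smart-seq2 RNA libraries of 25 mouse samples were read as FPKM. The authors deposited FPKM per gene in a table for oocytes (25158 genes, 25073 matched to a symbol) and a table for embryos (34228 genes, 34065 matched). Bowtie2 2.2.3, TopHat2 2.0.12 and the chicken build galGal4 are named in the submitters' processing notes, while all identifiers are mouse Ensembl. No source used here states the counting tool or annotation. FPKM corrects for depth and length, not for a few abundant genes that shift the rest. Depth was computed from the steps of the values and GENCODE M21 exon lengths: for values under 200 reads, between 90.6% and 93.4% were whole within 0.01. Smart-seq2 reads carry no molecular identifiers, so read numbers cover counting error only.

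The tests were limma 3.58.1 in R 4.3.3, with a variance trend, on log2(FPKM + 1), which understates changes of low genes, and were tested on simulated data. Members and lists were chosen with earlier results of these data known. Members are thus described by value, and the limma calls, intervals and p-values given for them are no independent test. Genes named were all members, the 5 most like Pcgf6, and the 2 largest passing changes per list between PBS stages at 5 FPKM or more, with contrasts chosen after their values were seen. Groups came from the labelled stage and agent. Replicate numbers follow the order of the labels and were not taken to pair samples. Coordinates are of GRCm38. Alternatives were a pseudocount of 0.1, no filter, a minimum of 10 FPKM, median scaling, a replicate block and leaving out each library.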

Additional observations from a re-analysis of the deposited data

Results flagged for a closer look

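In 8 of 147 groups of 4 or 5 libraries, a library of a member or named gene stood apart from the others by Dixon's criterion, and chance flags about 1 in 20 groups. Among the members, Rnf2 had 104.2 FPKM in 2-cell VCD replicate 1, against 84.6 to 86.1 FPKM in the other 3. Suz12 had 161.7 FPKM in morula PBS replicate 2, against 122 to 127 FPKM in the others. Ring1 had 0.0183 FPKM, a single read, in 2-cell PBS replicate 4 and was listed at 0 in the others. Among the list genes, Ezhip had 1143 FPKM in MII VCD replicate 1, against 1768 to 1827 FPKM in the others. Tdrd1 had 0.0853 FPKM in morula PBS replicate 2, against 0.0101 to 0.0195 FPKM. Gab1 had 0.219 FPKM in 2-cell VCD replicate 3, against 0.757 to 0.833 FPKM. Xist had 0.0167 FPKM in MII VCD replicate 1 and 0.00330 FPKM in MII PBS replicate 3, and was listed at 0 in the other oocytes.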

How the results depend on the processing

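No member and no list gene passed between VCD and PBS under any alternative run, and Pcgf6 in morulae kept its direction in each of them. Over all genes, the calls between agents numbered 0 or 1 within a stage and 0 to 2 for the difference between stages. Between morulae and 2-cell embryos, a minimum of 10 FPKM, which tests fewer genes, left 29 list genes passing with VCD, against 56 as reported, and 29 with PBS, against 60. The same minimum left 1 member higher in morulae with VCD, against 3, since L3mbtl2 and Mga were then not tested. Eed, which did not pass, changed sign when 1 library was left out, with a log2 difference from -0.0989 to 0.243 with VCD and from -0.0714 to 0.202 with PBS. The genes passing numbered 4638 to 14660 with VCD and 4832 to 15723 with PBS over the alternatives, against 10479 and 10978 as reported.

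The deviations of same-numbered libraries from their group means correlated at -0.33 to -0.11 in oocytes, -0.15 to 0.16 in 2-cell embryos and -0.05 to 0.38 in morulae. In morulae 2 of the 4 pairs, at 0.33 and 0.38, exceeded every pair of unlike numbers (at most 0.26), but not every pair did at any stage, so the numbers were not taken as a pairing. A fit with the replicate block called 0 members in each stage, and over all genes 0 in oocytes, 1 in 2-cell embryos and 1 in morulae. Counts near 0, as for Ring1, limit what these depths can show.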
